A study of Mus musculus with 8 samples.

Results

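Macrophages of the skin are represented in whole-tissue RNA by a small set of marker genes, and 9 of them are described here: Adgre1, Csf1r, Mrc1, Cd163, Lyz2, Fcgr1, C1qa, C1qb and C1qc. They were taken by gene name from a table of 34745 genes, each matched 1 row, and all 9 had enough counts to be tested. RNA sequencing was done on 8 skin samples of mice aged 16 weeks, in 2 groups of 4 samples. The NcstnΔKC mice carried Ncstn flx/flx alleles and 1 copy of Krt14 CreER, a recombinase driven by a keratin promoter of basal keratinocytes. They were given tamoxifen by gavage at a daily dose of 20 mg/kg on 5 days, starting when they were 8 weeks old, with further doses every 10 days. Ncstn encodes nicastrin, a γ-secretase subunit. The normal mice were given corn oil, and the protocol text describes them with the same alleles as the NcstnΔKC mice, whereas their genotype label reads wildtype. All samples are labelled male and as skin, the protocol speaks of lesions for both groups, and the body site and the depth of the excision were not given in the sources used here. The labels number the replicates but do not say from how many animals each library was made, so the p-values measure the spread between these samples.

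Tissue macrophages live in the dermis and around vessels, where they engulf dying cells, debris and microbes. Their survival depends on the receptor encoded by Csf1r, which binds the ligands CSF1 and IL-34. Many of them carry scavenger and lectin receptors, and they are a main source of C1q, the recognition part of the first complement component, which tags material for uptake. Several of the 9 genes are shared with other cells: Csf1r and Adgre1 are also expressed in Langerhans cells of the epidermis, Lyz2 in neutrophils and monocytes, and Mrc1 in lymphatic endothelium.

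The macrophage markers were high in 3 of the 4 NcstnΔKC libraries and not in the remaining one. In NcstnΔKC replicates 2, 3 and 4, all markers but Fcgr1 lay above every normal library, whereas in NcstnΔKC replicate 1 none did. With all libraries, 5 of the 9 members rose at an adjusted p under 0.05 (Mrc1, Cd163, C1qa, C1qb and C1qc), where 21.4% of the 15684 genes tested were higher and 22.7% lower (edgeR's quasi-likelihood test, Benjamini-Hochberg over all genes). No member fell by that test (0 also at an unadjusted p under 0.05, and 0 by DESeq2 or limma-voom). The median log2 fold change of the 9 members was 1.53, beside -0.02 over all tested genes. The groups overlapped in all 9 members, in 8 of them through NcstnΔKC replicate 1 alone and in Fcgr1 through the other 3 NcstnΔKC libraries, while 20.9% of all tested genes had NcstnΔKC libraries that all lay above the normal ones. Fewer macrophages and less RNA per macrophage cannot be told apart in whole tissue, and the same holds for more.

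**Figure D1:**
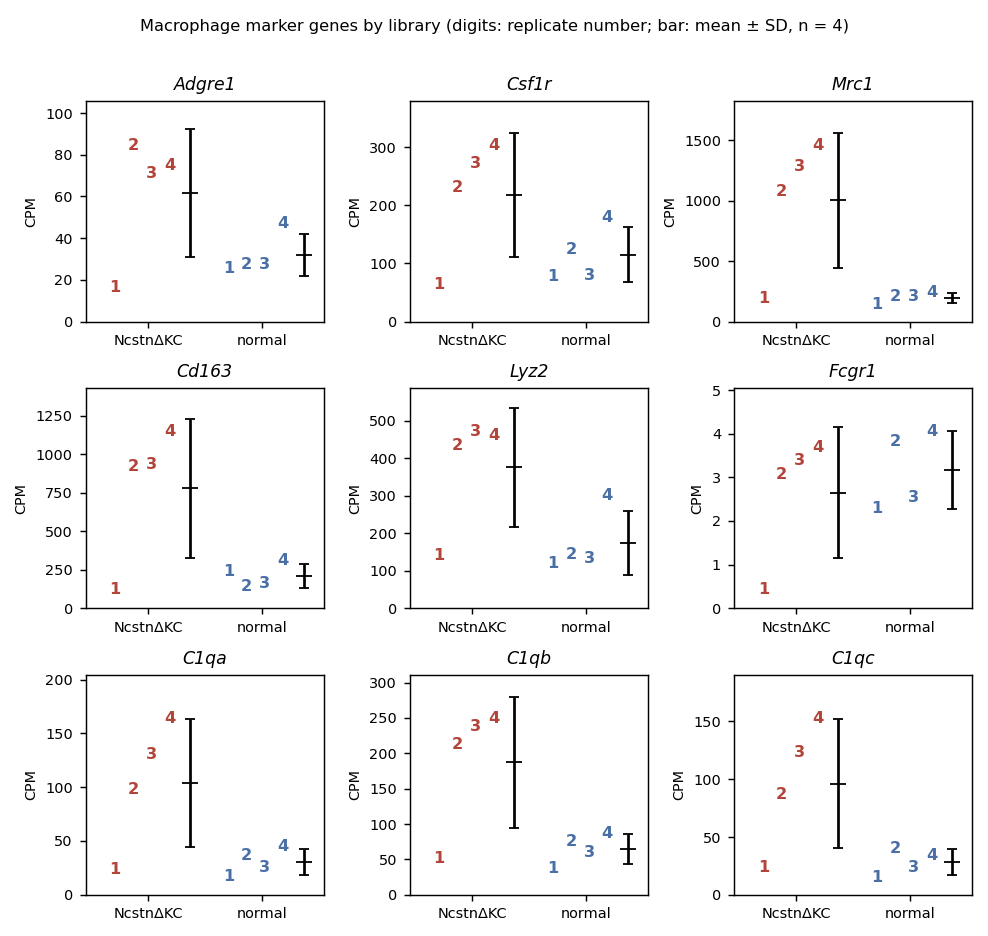
Level of each of the 9 macrophage markers in every library, in CPM (counts scaled to a common library size), on linear axes from 0; digits are replicate numbers and bars give the mean ± SD of 4 libraries. NcstnΔKC replicate 1 lies inside or below the normal range in each panel, and replicates 2 to 4 lie above it in each panel but that of Fcgr1.

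The libraries differed in ways that bear on these genes. Total counts were 11881506 to 12893174 in NcstnΔKC libraries and 5835422 to 8663753 in normal libraries. Replicates 3 and 4 of both groups held 22304 to 37109 counts of Xist, an RNA of female cells, against 4 to 9 in replicates 1 and 2, although every sample is labelled male. Ncstn had 50.2 to 66.8 CPM (counts scaled to a common library size by edgeR) in NcstnΔKC libraries and 58.4 to 61.9 CPM in normal libraries (-0.07 ± 0.12 on the log2 scale, SE, adjusted p = 0.663), and since the labels do not say which part of the gene was floxed and other cells of the skin keep it, this count does not check the deletion. Skeletal muscle genes took 0.480% to 2.86% of counts in NcstnΔKC libraries and 2.01% to 13.9% in normal ones, and NcstnΔKC replicate 1 held the 2.86%. Adipocyte genes took 0.0716% in NcstnΔKC replicate 1, within the 0.0631% to 0.133% of the normal libraries, and 0.0150% to 0.0432% in the other NcstnΔKC libraries. The part of these differences in tissue composition in the results below was not tested.

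The 2 receptors most used to identify macrophages had about the same pattern. Adgre1 (ENSMUSG00000004730, mm10 chromosome 17, 57358686 to 57483529) encodes F4/80, an adhesion receptor of the macrophage surface. It had 16.1, 84.5, 70.9 and 74.8 CPM in NcstnΔKC replicates 1 to 4, against 25.7, 27.2, 27.5 and 46.9 CPM in normal replicates 1 to 4. The lowest of all 8 values was thus in a NcstnΔKC library, and the other 3 of that group were the highest. Its means were 61.6 ± 30.9 CPM in NcstnΔKC skin and 31.8 ± 10.1 CPM in normal skin (SD, n = 4 each), and its log2 fold change of 0.95 ± 0.45 (SE) did not pass (adjusted p = 0.115).

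Csf1r (ENSMUSG00000024621, chromosome 18, 61105572 to 61132149), the growth factor receptor on which macrophages depend, had 63.9, 230, 272 and 303 CPM in NcstnΔKC replicates 1 to 4, against 77.7, 124, 79.3 and 178 CPM in normal replicates 1 to 4. NcstnΔKC replicate 1 was again the lowest library. The log2 fold change was 0.92 ± 0.46 (SE, adjusted p = 0.13), with a 95% interval of -0.11 to 1.95. Of the 31-base stretches of Csf1r transcripts, 14.9% also occur in transcripts of another gene, 843 of these 865 in Hmgxb3, whose annotated interval overlaps it. The counting of such reads was not given in the sources used here.

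The endocytic receptors had the largest estimated fold changes of the 9 members, with intervals that overlapped those of the C1q chains. Mrc1 (ENSMUSG00000026712, chromosome 2, 14229392 to 14332057) encodes CD206, a mannose-binding receptor of macrophages that take up glycoproteins. It had 194, 1073, 1283 and 1458 CPM in NcstnΔKC replicates 1 to 4, against 141, 210, 204 and 237 CPM in normal replicates 1 to 4. The level in NcstnΔKC replicate 1 lay inside the normal range, and the other 3 were far above it. Mrc1 rose by 2.34 ± 0.52 on the log2 scale (SE, adjusted p = 0.00704), a 5.06-fold difference, with means of 1002 ± 561 CPM in NcstnΔKC skin and 198 ± 40.5 CPM in normal skin (SD, n = 4 each).

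Cd163 (ENSMUSG00000008845, chromosome 6, 124304656 to 124330527), the receptor that takes up haemoglobin bound to haptoglobin, had 118, 923, 932 and 1145 CPM in NcstnΔKC replicates 1 to 4, against 236, 138, 161 and 307 CPM in normal replicates 1 to 4. NcstnΔKC replicate 1 was lower than every normal library, and the other 3 were far above all of them. Cd163 rose by 1.89 ± 0.59 on the log2 scale (SE, adjusted p = 0.0284). This call ended under 11 of 26 alternatives, with the fold change between 1.39 and 2.25 and the adjusted p between 0.000521 and 0.368 over all of them. The haptoglobin gene Hp had -0.39 ± 0.67 and the haem oxygenase gene Hmox1 had 0.34 ± 0.32 (adjusted p = 0.661 and 0.404). In the list of 6 tested genes of haem and iron handling, the ferritin light chain gene Ftl1 rose (0.81 ± 0.24, adjusted p = 0.0232) and the heavy chain gene Fth1 fell (-0.99 ± 0.16, adjusted p = 0.00171).

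All 3 chains of C1q rose. C1qa, C1qb and C1qc encode the A, B and C polypeptides that assemble into 1 protein, and lie next to each other on chromosome 4: C1qa (ENSMUSG00000036887, 136895917 to 136898803), C1qc (ENSMUSG00000036896, 136889804 to 136893065) and C1qb (ENSMUSG00000036905, 136880129 to 136886187). C1qa had 23.9, 97.6, 130 and 164 CPM in NcstnΔKC replicates 1 to 4, against 17.0, 36.1, 25.3 and 44.4 CPM in normal replicates 1 to 4. For C1qb the values were 50.7, 212, 237 and 249 CPM in NcstnΔKC libraries, against 37.5, 75.2, 59.9 and 86.2 CPM in normal libraries. For C1qc they were 23.4, 86.4, 123 and 153 CPM in NcstnΔKC libraries, against 15.0, 39.9, 23.6 and 34.3 CPM in normal libraries. In each chain NcstnΔKC replicate 1 stood inside the normal range, and replicates 2 to 4 above it.

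The log2 fold changes were 1.76 ± 0.53 for C1qa (SE, adjusted p = 0.0246), 1.53 ± 0.46 for C1qb (adjusted p = 0.0247) and 1.78 ± 0.52 for C1qc (adjusted p = 0.0230). These calls ended under 7 of 26 alternatives for C1qa, 7 for C1qb and 6 for C1qc, where the adjusted p reached 0.359, 0.344 and 0.443. Of the 36 pairs of members, the 3 pairs of C1q chains had the most similar profiles, with root mean square differences of 0.14, 0.18 and 0.22 in centred log2 CPM over the 8 libraries. Measured per length, as the authors' FPKM (fragments per kilobase, scaled to depth), C1qb made up 55.4% ± 4.09 of the C1q total in NcstnΔKC skin and 58.6% ± 2.02 in normal skin. C1qa made up 30.7% ± 2.78 in NcstnΔKC skin and 28.6% ± 1.70 in normal skin, and C1qc 13.9% ± 1.38 in NcstnΔKC skin and 12.7% ± 1.64 in normal skin (SD, n = 4 each). These shares overlapped between the groups. Of the other parts of the complement C1 complex, the protease genes C1ra (-0.66 ± 0.30, adjusted p = 0.0991) and C1s1 (0.55 ± 0.30, adjusted p = 0.166) did not pass. Serping1, which encodes the inhibitor of these proteases, fell (-0.73 ± 0.21, adjusted p = 0.0198).

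The bases before the gene start are shown for members with a match to GAGGAA, the core motif of PU.1, an ETS-family factor that macrophages depend on, so that the match can be seen in its context. Of the 9 members, 6 had an entry in the RefSeq table (GRCm38.p6), and 250 bases before the start were searched on both strands. Distances are counted from the RefSeq start, at 14229414 for Mrc1, 136886200 for C1qb, 136892914 for C1qc and 96293969 for Fcgr1, which differs from the edge of the gene in the deposited table for Mrc1, C1qb and C1qc. Mrc1 held 3 matches, at 180, 167 and 35 bases before the start, C1qb held 1 at 30 bases, C1qc held 1 at 193 bases and Fcgr1 held 1 at 55 bases. Cd163 and Lyz2 held none in this window. The motif occurred in 23.3% of all 32851 such windows. A match is a description of the letters, not a binding site. Capitals mark GAGGAA or its reverse complement TTCCTC, read 5′ to 3′ on the strand of the gene, for Mrc1 at chr2:14229204-14229389 (plus strand), C1qb at chr4:136886201-136886300 (minus), C1qc at chr4:136893067-136893164 (minus) and Fcgr1 at chr3:96293970-96294069 (minus).
Mrc1: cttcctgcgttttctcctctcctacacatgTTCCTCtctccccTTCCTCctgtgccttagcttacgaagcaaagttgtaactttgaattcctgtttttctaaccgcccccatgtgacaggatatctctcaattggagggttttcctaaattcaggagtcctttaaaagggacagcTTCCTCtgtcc
C1qb: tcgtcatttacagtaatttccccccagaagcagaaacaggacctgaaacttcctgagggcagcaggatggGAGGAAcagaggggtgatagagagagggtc
C1qc: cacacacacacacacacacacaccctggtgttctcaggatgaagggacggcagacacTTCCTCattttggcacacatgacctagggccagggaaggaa
Fcgr1: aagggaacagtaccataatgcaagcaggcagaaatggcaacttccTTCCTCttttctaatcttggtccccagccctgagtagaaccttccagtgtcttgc

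Lyz2 (ENSMUSG00000069516, chromosome 10, 117277334 to 117282274) encodes the lysozyme of macrophages and neutrophils, which cleaves bacterial cell walls. It had 139, 434, 470 and 461 CPM in NcstnΔKC replicates 1 to 4, against 120, 142, 132 and 299.8 CPM in normal replicates 1 to 4. NcstnΔKC replicate 1 lay among the 3 lower normal libraries, and normal replicate 4 stood apart above them. The log2 fold change was 1.11 ± 0.42 (SE, adjusted p = 0.058), which missed the threshold, and 9 of 26 alternatives passed it. Lyz1, the neighbouring near copy of Lyz2 that is known from Paneth cells of the gut, fell by 2.79 ± 0.36 on the log2 scale (adjusted p = 0.000555), with 1.51 to 2.83 CPM in NcstnΔKC libraries and 8.27 to 22.5 CPM in normal ones. Since 32.8% of the 31-base stretches of Lyz2 transcripts also occur in Lyz1, the split of reads between both genes is uncertain.

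Fcgr1 (ENSMUSG00000015947, chromosome 3, 96282909 to 96293969), the high-affinity receptor for IgG, was neither raised nor lowered by the test. It had 5, 45, 49 and 55 counts in NcstnΔKC replicates 1 to 4, against 15, 19, 18 and 31 counts in normal replicates 1 to 4. Scaled to depth these were 0.420, 3.07, 3.39 and 3.69 CPM in NcstnΔKC libraries, against 2.28, 3.83, 2.54 and 4.04 CPM in normal libraries. NcstnΔKC replicate 1 was the lowest library, and the others lay inside the normal range. Its log2 fold change of -0.25 ± 0.54 (SE, adjusted p = 0.731) turned to 0.10 with total-count scaling, and the 95% interval of -1.47 to 0.97 holds falls and rises alike, with its upper bound below the members' median of 1.53.

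**Figure D2:**
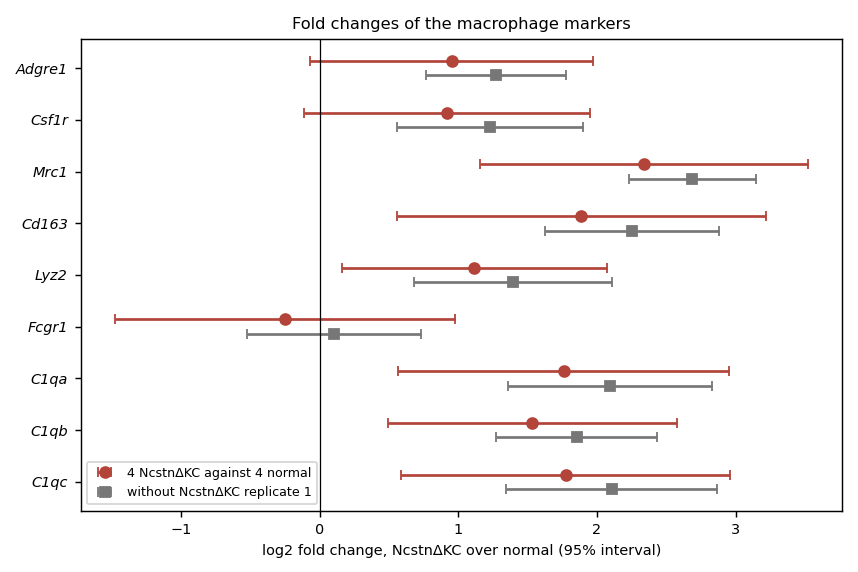
Log2 fold change of each marker, NcstnΔKC over normal, with its 95% interval from edgeR, for all 8 libraries (circles) and without NcstnΔKC replicate 1 (squares). Without that library the intervals are narrower and all but that of Fcgr1 lie above 0.

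Leaving out NcstnΔKC replicate 1 raised the number of markers that passed. The pattern of NcstnΔKC replicates 2 to 4 all above the normal range with replicate 1 not above it was present in 8 of the 9 members and in 6.3% of all tested genes. This pattern was described after the values were seen. The values of replicates 2 to 4 were at least 3.11 times (Lyz2) to 7.82 times (Cd163) that of replicate 1. Without replicate 1, 8 members rose, where 24.4% of 15843 genes were higher and 26% lower. Mrc1 then had 2.69 ± 0.20, Cd163 2.25 ± 0.27, C1qc 2.10 ± 0.33, C1qa 2.09 ± 0.32 and C1qb 1.85 ± 0.25 (SE), with adjusted p from 0.000101 to 0.00162 in edgeR's test. Lyz2 had 1.39 ± 0.31, Adgre1 1.27 ± 0.22 and Csf1r 1.23 ± 0.29 (adjusted p = 0.00713, 0.00229 and 0.00945). Fcgr1 was at 0.10 ± 0.27 (adjusted p = 0.776).

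Leaving out most of the other libraries lowered the count. Without NcstnΔKC replicate 3, NcstnΔKC replicate 4 or normal replicate 3, Mrc1 alone passed, and without NcstnΔKC replicate 2 the members Mrc1, C1qa and C1qc did. The calls of the C1q chains and Cd163 ended there with adjusted p between 0.0526 and 0.0669. Without normal replicate 1 that of C1qa ended (adjusted p = 0.0502), and without normal replicate 2 that of Cd163 did (adjusted p = 0.0631). Without normal replicate 4, Lyz2 passed as a sixth member (1.58, adjusted p = 0.0192). Mrc1 passed under 25 of 26 alternatives, with a log2 fold change between 1.78 and 2.71, and the exception was the comparison within the libraries without Xist.

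Because the libraries divided by Xist against their label, the markers were also compared within each kind of library. Among the libraries with Xist, 2 NcstnΔKC against 2 normal, 7 members rose and Lyz2 and Fcgr1 did not, where 26.3% of genes were higher. Mrc1 had 2.67, C1qc 2.29, Cd163 2.18, C1qa 2.11 and C1qb 1.77 on the log2 scale there. Among those without Xist, NcstnΔKC replicates 1 and 2 against normal replicates 1 and 2, no member passed in edgeR's test and 0.0191% of genes were higher. Mrc1 had 1.85, Cd163 1.48, C1qb 1.23, C1qa 1.20 and C1qc 1.01 in that comparison. The interaction of group with Xist passed for 0% of tested genes (0 of 15684, and 917 at an unadjusted p under 0.05, of which 0 were members).

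The scale on which libraries are compared moved the count as well. Scaled by total counts, all tested genes together had a median of 0.29, and 7 members and 33.9% of all genes were higher. With scaling by basal keratinocyte genes, which took 1.38% to 2.03% of counts in NcstnΔKC libraries and 0.792% to 1.34% in normal ones, that median was -0.50, and Mrc1 alone (1.78) and 6.38% of all genes were higher. DESeq2's Wald test called 6 members, the 5 named above and Lyz2, and 20.4% of genes higher, while limma-voom called Mrc1 alone and 20.2% of genes.

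A ratio of 2 genes within a library does not depend on scaling, and 2 of the 8 ratios to Adgre1 had groups that did not overlap. How many ratios of other genes to Adgre1 do so was not computed. In CPM, 20.9% of all tested genes had NcstnΔKC libraries all above the normal ones, and 20.7% all below. Mrc1 had 12.02, 12.7, 18.1 and 19.5 counts for each count of Adgre1 in NcstnΔKC replicates 1 to 4, against 5.49, 7.70, 7.39 and 5.05 in normal replicates 1 to 4. NcstnΔKC replicate 1, above the normal range in no marker, was thus above all normal libraries in this ratio. Its Mrc1 level was inside the normal range (194 CPM, against 141 to 237 CPM), and its Adgre1 level was below it (16.1 CPM, against 25.7 to 46.9 CPM). The log2 ratios were 3.93 ± 0.35 in NcstnΔKC skin and 2.66 ± 0.30 in normal skin (SD, n = 4 each), a difference of 1.27 (exact two-sided permutation test over 70 arrangements, p = 0.0286, the smallest possible, and adjusted p = 0.0914 over the 8 ratios).

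Fcgr1 had 0.0286, 0.0368, 0.0482 and 0.0498 counts per count of Adgre1 in NcstnΔKC replicates 1 to 4, against 0.0914, 0.144, 0.0946 and 0.0874 in normal replicates 1 to 4, a log2 difference of -1.36 with groups that did not overlap (exact permutation p = 0.0286, adjusted p = 0.0914). Relative to Adgre1, the differences were 0.79 for C1qa, 0.61 for C1qb, 0.82 for C1qc and 0.79 for Cd163 on the log2 scale, with groups that overlapped and exact permutation p of 0.0571 to 0.0857 (adjusted p = 0.0914 to 0.114). For Lyz2 it was 0.32 (exact permutation p = 0.143, adjusted p = 0.163). Csf1r had 3.96, 2.73, 3.84 and 4.05 counts per count of Adgre1 in NcstnΔKC libraries, against 3.02, 4.54, 2.88 and 3.80 in normal libraries, a log2 difference of 0.04 (exact permutation p = 0.886, adjusted p = 0.886). None of the 8 ratios passed at an adjusted p under 0.05, and 2 (Mrc1 and Fcgr1) had an unadjusted p under it.

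**Figure D3:**
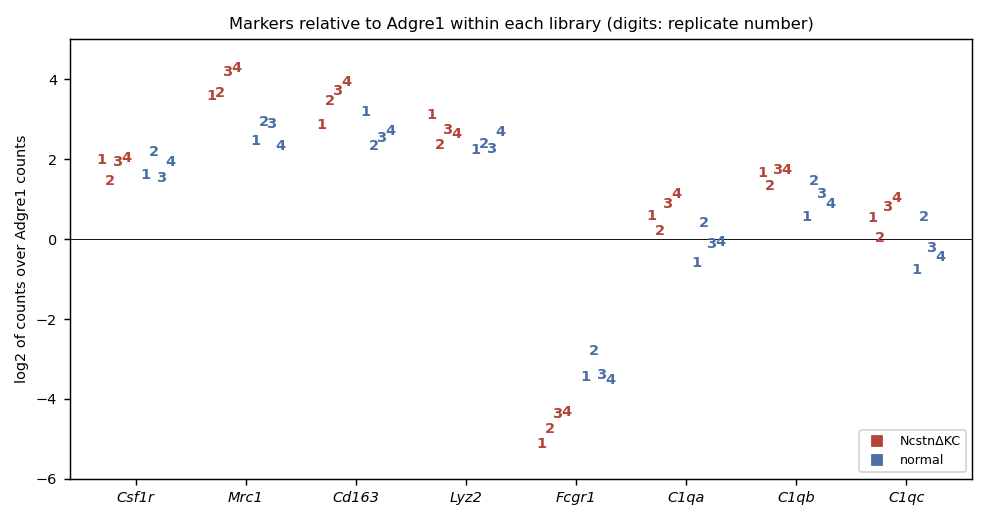
Counts of each marker over the counts of Adgre1 in the same library, as log2, with replicate numbers as digits and the horizontal line at equal counts. All 4 NcstnΔKC libraries lie above the normal ones for Mrc1 and below them for Fcgr1, and the groups overlap for the other 6 genes.

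Levels of different genes can be set side by side only per length, as FPKM. Lyz2 was the most abundant marker in every library, with a mean of 338 ± 152 FPKM in NcstnΔKC skin and 122 ± 62.6 FPKM in normal skin (SD, n = 4 each). C1qb came next, with 197 ± 101 FPKM in NcstnΔKC skin and 52.4 ± 16.8 FPKM in normal skin. Mrc1 (154 ± 88.6 FPKM), Cd163 (129 ± 76.3) and C1qa (114 ± 67.6) followed in NcstnΔKC skin, against 23.5 ± 4.37 FPKM for Mrc1, 27.3 ± 11.3 for Cd163 and 26.1 ± 10.3 for C1qa in normal skin. Within each group the means of these 3 differed by less than their SD, which does not measure the spread of a difference within a library. Mrc1 lay above Cd163 and C1qa in every NcstnΔKC library, and the order varied among normal libraries. Below them stood C1qc with 51.2 ± 30.5 FPKM in NcstnΔKC skin and 11.5 ± 4.32 FPKM in normal skin. Csf1r had 42.3 ± 21.7 FPKM in NcstnΔKC skin and 17.4 ± 7.49 FPKM in normal skin. C1qc lay above Csf1r in every NcstnΔKC library, by little in replicate 1, and below it in every normal library. Adgre1 had 19.5 ± 10.2 FPKM in NcstnΔKC skin and 7.86 ± 2.68 FPKM in normal skin. Fcgr1 was the least abundant in every library, with 1.04 ± 0.604 FPKM in NcstnΔKC skin and 0.963 ± 0.269 FPKM in normal skin.

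Other macrophage genes were read from lists. Among 15 tested genes of resident dermal macrophages, 4 rose and 1 fell, beside 21.4% higher and 22.7% lower over all tested genes, with a median log2 fold change of 0.96. The 1 that fell, Timd4, passed the filter on low counts only through the normal libraries. Clec10a, a galactose-binding lectin, rose by 2.37 ± 0.49, Lyve1, a hyaluronan receptor, by 2.22 ± 0.58, Cd209d, a C-type lectin, by 1.63 ± 0.56, and Sepp1, which encodes the selenium carrier selenoprotein P, by 1.39 ± 0.41 (SE, adjusted p = 0.00516, 0.0141, 0.0398 and 0.0223). In each of the 4, NcstnΔKC replicate 1 lay inside or below the normal range and the others above it: Clec10a had 50.0, 220, 250.4 and 277 CPM in NcstnΔKC replicates 1 to 4, against 26.1, 51.0, 27.7 and 49.2 CPM in normal replicates 1 to 4. Lyve1 and Mrc1 also mark lymphatic endothelium, whose regulator Prox1 fell (-0.80 ± 0.26, adjusted p = 0.034) and whose receptor gene Flt4 did not pass (0.10 ± 0.19, adjusted p = 0.676). Of the 7 endothelial genes, Vwf rose, and Kdr, Tek and Prox1 fell. The summed share of all 7 was 0.0313% to 0.0410% of counts in NcstnΔKC libraries and 0.0273% to 0.0325% in normal ones. Such shares are of total counts, without the scaling behind the CPM values and fold changes, so they cannot be set directly beside those. The part of endothelium in the levels of Mrc1 and Lyve1 was not tested. Without NcstnΔKC replicate 1, 11 of the 15 rose and 2 fell (Timd4 and Cd209g), beside 24.4% higher and 26% lower over all genes. Of the 15, 11 had replicates 2 to 4 above the normal range and replicate 1 not (6.3% of all tested genes).

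On the lists of resident dermal and other macrophage genes, Timd4, Marco and Cd209g were lower in each NcstnΔKC library than in each normal one, as were 20.7% of all tested genes. Timd4, a phosphatidylserine receptor of long-lived resident macrophages, had 0.168, 0.205, 0.207 and 0.269 CPM in NcstnΔKC replicates 1 to 4, against 1.82, 1.61, 5.51 and 3.91 CPM in normal replicates 1 to 4 (-3.85 ± 0.50, SE, adjusted p = 0.000590). These are low levels, with 12 counts over the NcstnΔKC libraries and 89 over the normal ones. Timd4 passed the filter on low counts only through the normal libraries, so its test is not independent of its fall. Marco, a scavenger receptor, had 0 counts in the 4 NcstnΔKC libraries, which allows up to 0.0537 CPM (3 counts over the group, counting error only), and 62 counts in the 4 normal libraries, at 0.403 to 5.08 CPM, and was not tested because of its low counts. The lectin gene Cd209g had -1.43 ± 0.64 and did not pass (adjusted p = 0.0979), with 0.336 to 6.43 CPM in NcstnΔKC libraries and 6.64 to 14.6 CPM in normal ones.

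**Figure D4:**
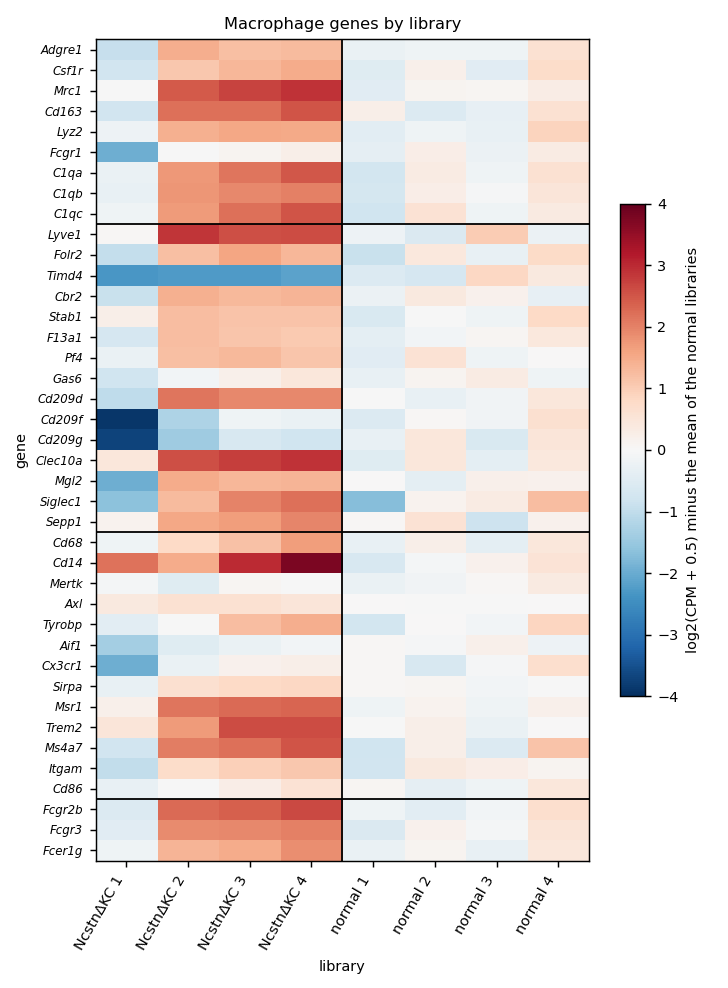
Difference of each macrophage gene from the mean of the normal libraries, as log2(CPM + 0.5), in each library (columns) for the 9 markers, the resident dermal macrophage list, other macrophage genes and Fc receptors (blocks from top to bottom). NcstnΔKC replicates 2 to 4 are red in most rows, NcstnΔKC replicate 1 is pale or blue in most rows, and Timd4 is blue in all 4 NcstnΔKC libraries.

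Of 13 other tested macrophage genes, 4 rose, beside 21.4% of all tested genes: Cd14, a lipopolysaccharide co-receptor (2.89 ± 0.52), Trem2, a lipid receptor (2.64 ± 0.58), Msr1, a scavenger receptor (2.02 ± 0.43), and Axl, a receptor for dying cells (0.52 ± 0.10; SE, adjusted p = 0.00256, 0.00616, 0.00571 and 0.00403). Trem2 had 20 counts over all normal libraries and passed the filter on low counts only through the NcstnΔKC libraries. Its test is thus not independent of its rise. None of the 13 fell in edgeR's test (0 at an unadjusted p under 0.05). In these 4 genes NcstnΔKC replicate 1 lay above the normal range too, by little in Msr1 (7.049 CPM, against 7.035 CPM in the highest normal library): Trem2 had 1.26, 3.62, 7.26 and 7.25 CPM in NcstnΔKC replicates 1 to 4, against 0.759, 1.01, 0.565 and 0.782 CPM in normal replicates 1 to 4. Cd68 (0.99 ± 0.37, adjusted p = 0.0562), Mertk (-0.13 ± 0.18, adjusted p = 0.567) and Cx3cr1 (-0.36 ± 0.54, adjusted p = 0.616) did not pass. The list of Fc receptors for IgG other than Fcgr1 had 3 tested genes, and all 3 rose, beside 21.4% of all tested genes. These were the inhibitory receptor Fcgr2b (2.03 ± 0.57), the low-affinity receptor Fcgr3 (1.59 ± 0.49) and the shared signalling chain Fcer1g (1.33 ± 0.41; adjusted p = 0.0192, 0.0263 and 0.0277). Fcgr4, also listed, had 117 counts over the NcstnΔKC libraries and 11 over the normal ones, and was not tested because of its low counts. Fcgr2b had 36.1, 255, 278 and 333 CPM in NcstnΔKC replicates 1 to 4, against 47.1, 39.5, 49.3 and 84.8 CPM in normal replicates 1 to 4.

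Of 14 phagolysosome genes 5 rose, beside 21.4% of all tested genes, the protease gene Ctsd (0.62 ± 0.17, adjusted p = 0.016) and 4 with a lower p. These were the proteases Ctsl (1.73 ± 0.20), Ctss (1.93 ± 0.45) and Lgmn (1.65 ± 0.40) and the membrane protein Lamp2 (0.82 ± 0.15; SE, adjusted p = 0.000385, 0.00878, 0.0104 and 0.00308). Several of these are also expressed in other cells. NcstnΔKC replicate 1 lay above the normal range in Ctsd, Ctsl and Lamp2 (994, 503 and 429 CPM) and inside it in Ctss and Lgmn. For Ctsd it was the highest of all libraries. Among transcription factors of macrophages, Tfec (3.40 ± 0.75) and Cebpb (1.06 ± 0.26) rose and Nr1h3, the liver X receptor alpha, fell (-0.89 ± 0.16; adjusted p = 0.00683, 0.0102 and 0.00263). Tfec had 1.34, 14.8, 18.3 and 18.9 CPM in NcstnΔKC replicates 1 to 4, against 1.21, 2.22, 0.847 and 0.912 CPM in normal replicates 1 to 4. Spi1, which encodes PU.1, had 0.68 ± 0.33 (adjusted p = 0.117). Of the ligands of the Csf1r receptor, Il34, made by keratinocytes, fell (-1.03 ± 0.25, adjusted p = 0.0103), with 9.07 to 12.2 CPM in NcstnΔKC libraries and 13.5 to 30.2 CPM in normal ones. Csf1 was at -0.01 ± 0.29 (adjusted p = 0.984), and was lowest in NcstnΔKC replicate 1, with 26.8, 56.2, 75.2 and 76.4 CPM in NcstnΔKC replicates 1 to 4, against 54.2 to 63.8 CPM in normal libraries.

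**Figure D5:**
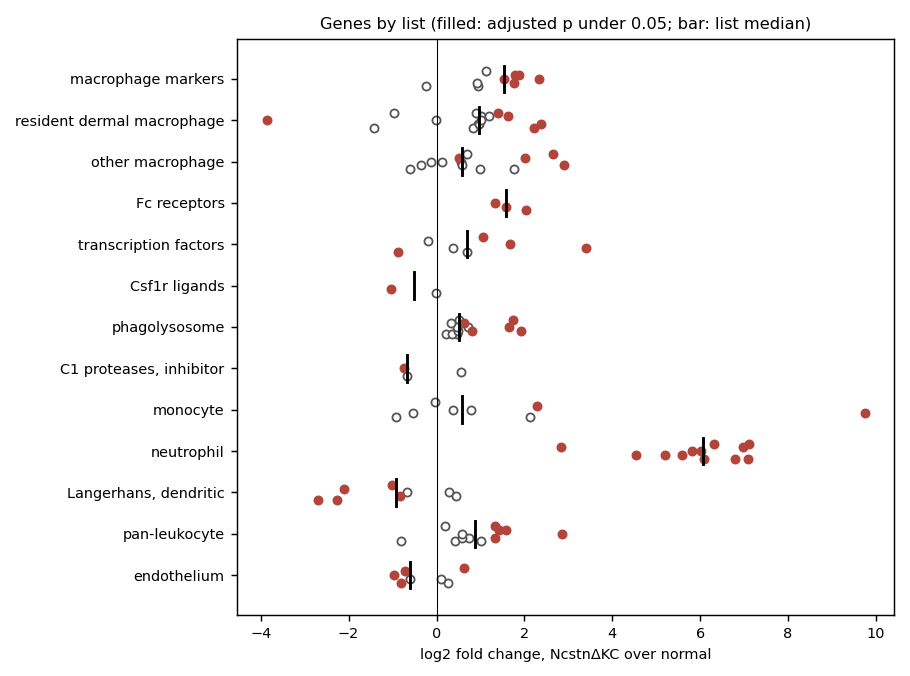
Log2 fold change of each tested gene, NcstnΔKC over normal, by list; filled points passed at an adjusted p under 0.05 and black bars are list medians. The macrophage markers have a median of 1.53 and the Langerhans and dendritic genes one of -0.92, and most neutrophil genes were tested through counts in the NcstnΔKC libraries alone. The same holds for Trem2, while Timd4 and Clec9a were tested through counts in the normal libraries alone.

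Markers of other leukocytes did not all follow the macrophage pattern. Of 16 neutrophil genes listed, 12 had enough counts to be tested, most of them through the NcstnΔKC libraries alone, so no count of rises is given. Csf3r, the receptor for a neutrophil growth factor, which had 115 counts over the normal libraries, rose (2.83 ± 0.65, SE, adjusted p = 0.00781), with 8.06, 16.3, 41.3 and 58.1 CPM in NcstnΔKC replicates 1 to 4, against 2.40 to 7.30 CPM in normal libraries. The summed share of the neutrophil list was 0.0112% of counts, 0.0210%, 0.0379% and 0.0557% in NcstnΔKC replicates 1 to 4, against 0.000489% to 0.00134% in normal libraries. Both values were above the normal range in NcstnΔKC replicate 1 as well, whose macrophage markers lay inside or below the normal range. Elane and Mpo, granule genes of neutrophil precursors, had at most 0.269 and 0.207 CPM in NcstnΔKC libraries and at most 0.282 and 1.52 CPM in normal libraries. Lyz2 is shared with neutrophils, and their part in its level was not tested. Of 8 tested Langerhans and dendritic cell genes, 5 fell, beside 22.7% of all tested genes: Zbtb46, Epcam and 3 others. Cd207, the Langerhans lectin, had -2.70 ± 0.56, Flt3, a growth factor receptor of dendritic cells, -2.10 ± 0.34 and Clec9a -2.27 ± 0.44 (SE, adjusted p = 0.0052, 0.00159 and 0.00381). Clec9a, with 24 counts over the NcstnΔKC libraries and 56 over the normal ones, passed the filter on low counts only through the normal libraries. Its test is thus not independent of its fall. The summed share of the Langerhans and dendritic list was 0.0156% to 0.0201% in NcstnΔKC libraries and 0.0170% to 0.0199% in normal ones. Mfge8 (means of 67.4 CPM in NcstnΔKC and 55.4 CPM in normal skin) and Epcam (53.0 and 93.8 CPM) weighed most in it. Cd207 had means of 1.61 CPM in NcstnΔKC and 10.3 CPM in normal skin, and so hardly moved the sum. The part of Langerhans and dendritic cells in the levels of Adgre1 and Csf1r was not tested.

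Among monocyte genes, the chitinase-like gene Chil3 had 8.22, 88.1, 203 and 258 CPM in NcstnΔKC replicates 1 to 4, against 4 counts over all normal libraries, and passed the filter on low counts only through the NcstnΔKC libraries. Ly6c2 had 2.12 ± 0.82 (adjusted p = 0.062) and Ccr2, the chemokine receptor of inflammatory monocytes, -0.54 ± 0.22 (adjusted p = 0.0768). Ptprc, the CD45 gene of all leukocytes, had 90.4, 138, 198 and 223 CPM in NcstnΔKC replicates 1 to 4, against 134, 73.4, 106 and 169 CPM in normal replicates 1 to 4 (0.43 ± 0.32, adjusted p = 0.303). Of the 12 leukocyte-wide genes 5 rose, beside 21.4% of all tested genes: Laptm5, Coro1a, Cytip, Vav1 and the tetraspanin Cd53. The largest change was that of Cd53 (2.85 ± 0.44, adjusted p = 0.00138), whose groups did not overlap, unlike those of Ptprc. In each of these 5 genes NcstnΔKC replicate 1 lay above the normal range, unlike in the macrophage markers. Cytip was highest there, at 43.5 CPM, against 15.3 to 30.7 CPM in NcstnΔKC replicates 2 to 4. The summed shares of 19 lists, the 9 members included, were compared by exact permutation tests, and none passed (lowest p = 0.0286, adjusted p = 0.109). That is the smallest p that 4 against 4 libraries allow, so a list whose groups do not overlap could miss the threshold after adjustment over 19 lists. The members together took 0.0632%, 0.365%, 0.402% and 0.463% of counts in NcstnΔKC replicates 1 to 4, against 0.0655%, 0.0677%, 0.0585% and 0.113% in normal replicates 1 to 4.

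The genes whose profiles over the 8 libraries were nearest to those of the markers were found by the root mean square difference of centred log2 CPM among 11570 genes. For the mean of the C1q chains they were Fcgr3 (0.18), Plau (0.24) and Lgmn (0.25), for Cd163 they were Fcgr2b (0.19), Cd209d (0.24) and Arhgap8 (0.34), and for Mrc1 they were Tmem8 (0.25), Clec10a (0.26) and Ccl6 (0.26). Adgre1 was nearest to F13a1 (0.18), Gsdmd (0.21) and Naaa (0.24), Csf1r to Aoah (0.18), Adm (0.20) and Cyba (0.20), and Lyz2 to Cd48 (0.19), Pik3cg (0.23) and Fcer1g (0.23). Fcgr1 was nearest to Fgd2 (0.18), Rasgrp4 (0.21) and Hs1bp3 (0.21), and the log2 fold changes of these 3 ran from -0.51 to -0.39. Fcgr2b, Fcgr3, Fcer1g, Clec10a, Cd209d, F13a1, Lgmn and Cd48 were also on the lists described above.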

How the data were processed

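RNA sequencing of skin gave 1 library for each of 8 samples. The authors deposited raw counts per gene and FPKM values (fragments per kilobase, scaled to depth) for 34745 Ensembl genes, per the file headers. TopHat2 2.0.9, TopHat and HTSeq, and the builds mm10 and hg38, are named in the submitters' processing notes without role or settings. Of the gene IDs, 34267 occur in GENCODE M21 (mm10), 80.8% of them with the same coordinates. The strand setting and the handling of shared reads were not given in the sources used here.

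Samples were grouped by their titles. Counts were filtered with filterByExpr, scaled by TMM and compared with edgeR 4.0.16 (R 4.3.3, robust quasi-likelihood test, two-sided), which left 15684 genes, with a threshold of 0.05 after Benjamini-Hochberg adjustment. SE and 95% intervals come from that fit. Ratios were taken from counts with 0.5 added, and summed shares of lists are of total counts, without TMM scaling. Biological variation (common coefficient) came to 0.315. Also used were matplotlib 3.10.9, pandas 2.3.3, numpy 2.4.6 and Python 3.11.15, and for alternatives DESeq2 1.42.0 and limma 3.58.1. Shared sequence was measured by 31-base stretches of GENCODE M21 transcripts. Alternatives were other scalings, tests and filters, the replicate block, Xist, depth, removal of tissue genes, and leaving out libraries.

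The members and lists were chosen with earlier results of these data known. Named genes were the members, up to 4 genes of each list with the lowest p, Csf1, Il34, Ptprc, Lyz1, Ncstn and Xist, the 3 nearest genes of each profile, and others singled out after their values were seen. The 1 list entry matched through the reference table was Selenop (Sepp1). Some listed genes are not reported here.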

Additional observations from a re-analysis of the deposited data

Results flagged for a closer look

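Within each group of 4 libraries, 72 sets of values (markers, ratios to Adgre1 and list shares) were screened for a library far from the other 3 by Dixon's criterion, which flags about 1 in 20 sets by chance, and 8 stood out. Normal replicate 4 was high in Adgre1 (46.9 CPM, next 27.5), in Lyz2 (299.8 CPM, next 142), in the summed share of the 9 markers (0.113% of counts, next 0.0677%) and in that of the Fc receptors (0.0116%, next 0.00659%). NcstnΔKC replicate 1 was low in Lyz2 (139 CPM, next 434). NcstnΔKC replicate 2 had a low ratio of Csf1r to Adgre1 (2.73, next 3.84), and normal replicate 2 a high ratio of Fcgr1 to Adgre1 (0.144, next 0.0946). Hair genes took 3.41% of counts in normal replicate 2 (next 0.0434%).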

How the results depend on the processing

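Of the 26 alternatives, the count of 5 markers higher became 7 with total-count scaling and 7 in the libraries with Xist alone, 1 with scaling by basal keratinocyte genes, 1 with limma-voom, 0 in the libraries without Xist alone, and 8 when NcstnΔKC replicate 1 and normal replicate 2 were left out together. It ran from 1 to 8 when 1 library was left out, and the count of markers lower was 0 under every alternative. Over all genes, 5323 were higher and 2224 lower with total-count scaling, 1000 and 5821 when scaled by basal keratinocyte genes, 5344 and 2123 with limma-trend on log2(FPKM + 1), and 3 and 1 in the libraries without Xist, against 3360 and 3555. Leaving out 1 library gave 2733 to 3870 higher and 2722 to 4124 lower. Fcgr1 turned to 0.10 with total-count scaling, 0.14 in the libraries with Xist, 0.19 with those 2 libraries left out together and 0.0033 with FPKM, and ran from -0.44 to 0.10 when 1 library was left out (0.10 without NcstnΔKC replicate 1). The other 8 markers stayed above 0 under all 26 alternatives. Among the 26, the filter of at least 1 CPM in 4 libraries left 15684 genes, as the main filter did, and gave the same values. It therefore adds nothing to the tallies of calls kept. The log2 difference in the ratio of Csf1r to Adgre1 changed sign when single libraries were left out, from -0.055 to 0.17. The other 7 ratios kept their sign under the 9 alternatives run for them (FPKM and leaving out 1 library). The cause of these shifts was not tested.

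The deviations of same-numbered libraries from their group means correlated at -0.02, -0.03, -0.01 and 0.22, and only the replicates numbered 4 correlated best with their own number, so the numbers were not taken as pairs. With the replicate block 5 markers passed, as Cd163 lost its call (1.66, adjusted p = 0.102) and Lyz2 gained one (1.07, adjusted p = 0.0384). Fcgr1 rests on 5 to 55 counts per library, which limits its precision.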
